A study of Mus musculus with 12 samples.

Results

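The livers described here came from the wild-type arm of an RNA-seq study of experimental colitis in mice, in which dextran sodium sulfate (DSS), a detergent-like polysaccharide that injures the colonic epithelium, was given in the drinking water. They make up 6 of the 12 liver libraries of the series and were chosen by their labels alone: 3 wild-type mice on water and 3 wild-type mice on 2% DSS for 6 days, all on a C57BL/6 background. By the study's methods the mice were 5 to 7 weeks old, male or female, and those called wild type were Cre-negative littermates of a line in which Cre under the albumin promoter deletes Rela and Stat3 in hepatocytes, which for that line are Rela fl/fl Stat3 fl/fl. The labels give neither the floxed alleles nor the sex of each mouse. All 51609 gene rows were considered, and 17652 of them passed the filter on low counts and were tested.

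DSS opens the gut barrier, and microbial products then drain through the portal vein to the liver, where Kupffer cells, the resident macrophages, meet them first. Type I interferons act through a complex of transcription factors that binds the interferon-stimulated response element (ISRE) in front of antiviral genes. Interleukin 6 acts through STAT3 in hepatocytes and raises the acute-phase proteins that the liver secretes into plasma, while many enzymes of drug and intermediary metabolism are known to fall during systemic inflammation. The comparison asks which of these gene programs moved in the liver of colitic mice, and whether each was present in all 3 DSS-treated livers or carried by a few of them.

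No other list held as many called genes as the interferon-stimulated genes, so the sequence it is known for is shown first, from the RefSeq promoter windows (250 bases before the transcription start, build GRCm38.p6). The stretches below were read 5′ to 3′ on the gene's strand around matches to the core of the ISRE, which are in capitals. The core was searched as a pair of GAAA separated by any 2 bases, or on the other strand a pair of TTTC so separated, and overlapping matches were joined. They belong to 4 genes called higher (Oas3, Ddx60, Slfn5 and Socs1) and to 3 classical interferon-stimulated genes that did not reach the threshold (Isg15, Ifit1 and Rsad2).
Oas3, chr5:120777695-120777764, minus strand: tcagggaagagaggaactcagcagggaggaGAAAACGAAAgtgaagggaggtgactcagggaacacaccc
Ddx60, chr8:61928038-61928086, plus strand: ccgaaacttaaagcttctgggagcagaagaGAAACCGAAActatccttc
Slfn5, chr11:82951917-82951986, plus strand: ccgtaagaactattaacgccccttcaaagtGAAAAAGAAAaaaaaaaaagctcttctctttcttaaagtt
Socs1, chr16:10785574-10785643, minus strand: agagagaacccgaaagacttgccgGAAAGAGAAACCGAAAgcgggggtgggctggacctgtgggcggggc
Isg15, chr4:156200845-156200914, minus strand: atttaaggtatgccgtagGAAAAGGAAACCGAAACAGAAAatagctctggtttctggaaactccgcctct
Ifit1, chr19:34640774-34640843, plus strand: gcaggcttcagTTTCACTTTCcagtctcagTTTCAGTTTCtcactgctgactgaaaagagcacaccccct
Rsad2, chr12:26456533-26456602, minus strand: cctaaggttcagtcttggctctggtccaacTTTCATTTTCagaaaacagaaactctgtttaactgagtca
The motif was present, on either strand, in the window of 11 of the 28 interferon-stimulated genes that matched the promoter table (39.3%), of 11 of the 56 matched genes called higher (19.6%) and of 0 of the 27 matched genes called lower. Among all 27025 genes of the promoter table it was present in 936 (3.46%). It was in 0 of the 17 matched acute-phase genes. A match describes these letters and is not evidence of binding.

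The totals of estimated counts were 66380139 to 74532403 in the untreated livers and 66999050 to 82850098 in the DSS livers, and 20479 to 21227 genes were detected per library. In what follows, CPM are counts scaled to the library size and its TMM factor, a log2 fold change is DSS minus untreated from edgeR with its standard error after ±, and every adjusted p not credited to another tool is edgeR's. Hepatocyte markers were high in all 6 libraries. The 9 marker genes took 13.6% to 15.4% of the counts in the untreated livers and 17.5%, 8.38% and 11.3% in DSS livers 1 to 3. Among the libraries, 2 stood apart. Untreated liver 3 had 1143 CPM of Xist, the transcript of the inactive X chromosome, against 0.565 and 0.191 in the other untreated livers and 11.1, 0.191 and 11.9 in DSS livers 1 to 3, together with Y-linked transcripts at a low level (Ddx3y 14.3 CPM, against 89.4 to 124.8 in the other 5 livers), as was also the case for Uty, Kdm5d and Eif2s3y. DSS liver 2 had the lowest TMM factor (0.758, against 0.999 to 1.06 in the other 5) and the lowest sample quality weight in limma (0.416). Results are therefore also given without these libraries. The labels name no batch, and all tests compare 3 mice with 3 mice.

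DSS treatment was accompanied by higher levels of 80 genes and lower levels of 41 genes at an adjusted p under 0.05 (edgeR quasi-likelihood test with Benjamini-Hochberg adjustment), which is 0.685% of the genes tested (0.453% higher and 0.232% lower). An unadjusted p under 0.05 was reached by 14.5% of all tested genes, a share to set beside the counts at that threshold given for lists further on. In all 121 called genes the values of the 3 DSS livers lay outside the range of the 3 untreated livers, which was also true of 18.7% of all tested genes, 9.49% with DSS higher and 9.21% with DSS lower. Leaving out untreated liver 3 reduced the calls to 44, of which 40 were among the 121, and leaving out untreated livers 1 or 2 reduced them to 59 or 35. Leaving out DSS liver 2 raised them to 190, of which 95 were among the 121, and leaving out DSS liver 1 raised them to 209. The call was kept in all 6 fits without 1 library by 22 genes. The 15 of these that were higher included Oas3, Oas2, Xaf1, Irf7, Slfn1, Siglec1, Ube2l6, Shisa5, Adamts6, Plscr1 and Pyhin1, and the 7 that were lower were Thrsp, Sparc, Hsp90aa1, Car2, G0s2, Gm12346 and Gm5844. Gm12346 and Gm5844 had log2 fold changes near that of Hsp90aa1 (-1.39 and -1.28 against -1.24). Whether they share reads with it was not tested, so they may not be separate results. The other 99 lost the call in at least 1 of these fits. A fit of the 6 wild-type libraries alone, whose spread is estimated from fewer mice, called 21 genes, all of them among the 121.

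The 3 DSS livers were not alike. A difference of over 4-fold was present between DSS livers 1 and 2 in 6.51% of the tested genes and between livers 2 and 3 in 6.40%, against 5.01% between livers 1 and 3 and 4.02% to 4.91% between untreated livers. The livers also differed in the programs they showed. For each gene, the log2 CPM of each DSS liver was set against the mean of the 3 untreated livers, and the median of this difference was taken over the genes of a list. The median over the interferon-stimulated genes was 2.12 in liver 1, 0.77 in liver 2 and 2.01 in liver 3. Over the acute-phase plasma proteins it was 0.13, 3.48 and 1.62. Over all tested genes it was 0.01, 0.03 and 0.02. Liver 2 thus had the lowest interferon and the highest acute-phase values of the treated livers, and liver 1 had the reverse. As a share of all counts, without the TMM factor, the interferon-stimulated genes took 0.135% to 0.163% in the untreated livers. That share was 0.448%, 0.174% and 0.405% in DSS livers 1 to 3, so the rise in liver 2 was then small.

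**Figure D1:**
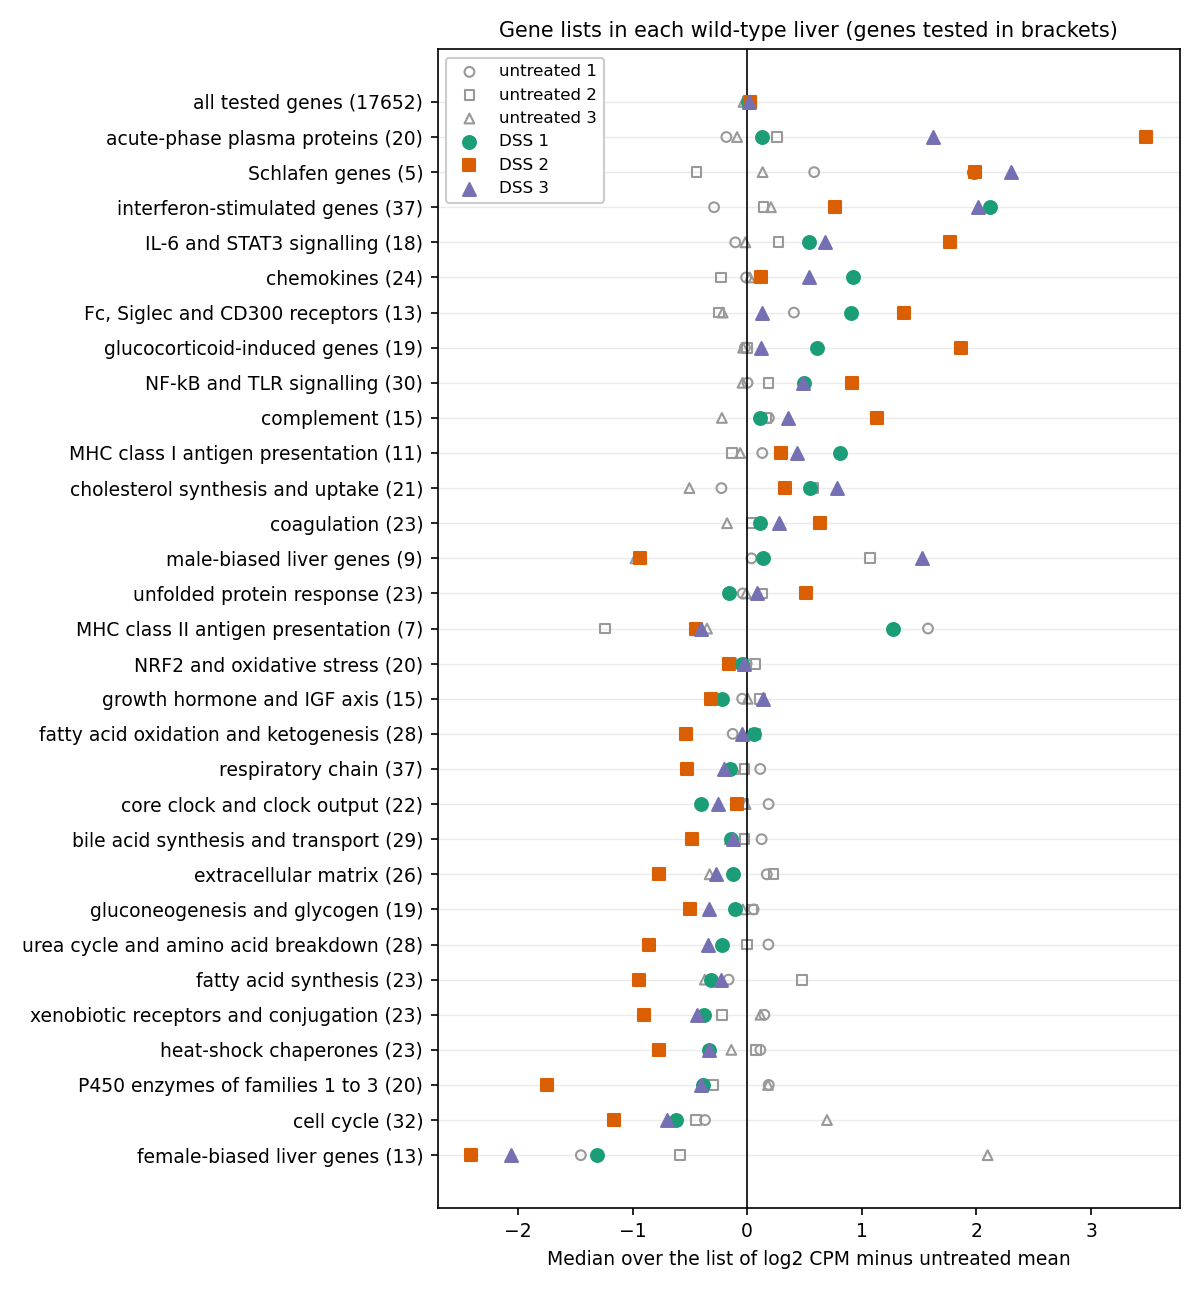
Median difference in log2 CPM from the untreated mean over the tested genes of each list (horizontal axis), for the 3 DSS livers (filled) and, for each untreated liver, from the mean of the other untreated livers (open). DSS liver 2 lies far to the right for acute-phase genes (3.48) and far to the left for P450 enzymes (-1.74). The interferon-stimulated genes lie above every untreated liver in all 3 DSS livers (0.77 to 2.12). In liver 2 this height depends in part on its TMM factor (0.758).

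Interferon-stimulated genes were higher in the DSS livers as a group. Of the 37 list members tested, 12 were called higher and 0 lower, all 37 had a positive fold change (52.2% of all tested genes did), and the groups did not overlap in 31. The median log2 fold change was 1.85, against 0.02 over all tested genes. The smallest p-value of the list was that of Oas3, an enzyme that makes the oligoadenylate messenger of RNase L. Its level was 2.25, 2.75 and 2.53 CPM in the untreated livers and 25.7, 17.2 and 22.9 CPM in the DSS livers (log2 fold change 3.13 ± 0.33, adjusted p = 0.00215), so every DSS liver was several times above every untreated one. Its relative Oas2 rose from 2.08, 2.24 and 2.17 CPM to 9.499, 7.56 and 6.65 CPM (log2 fold change 1.87 ± 0.26, adjusted p = 0.00782). Irf7, the transcription factor that amplifies interferon production, was 49.02, 51.6 and 69.5 CPM untreated and 269.6, 312 and 232 CPM with DSS (log2 fold change 2.26 ± 0.30, adjusted p = 0.00756), and was the list's only called gene that was highest in liver 2. Xaf1, a pro-apoptotic interferon target, was 16.4, 24.8 and 25.8 CPM untreated and 102, 69.6 and 105 CPM with DSS (log2 fold change 2.05 ± 0.23, adjusted p = 0.00247). These 4 genes kept the call without any 1 library.

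The RNA sensors and effectors moved the same way with a clear dip in liver 2. Ddx58, which encodes the cytosolic RNA sensor RIG-I, was 44.6 to 55.01 CPM in the untreated livers and 129, 76.4 and 138 CPM in DSS livers 1 to 3 (log2 fold change 1.22 ± 0.22, adjusted p = 0.0259). Its regulator Dhx58 was 11.4 to 18.1 CPM and then 60.2, 32.7 and 56.7 CPM (log2 fold change 1.85 ± 0.33, adjusted p = 0.0261), and Ddx60 was 9.14 to 19.6 CPM and then 78.7, 41.7 and 71.96 CPM (log2 fold change 2.14 ± 0.33, adjusted p = 0.0147). In each of these genes livers 1 and 3 were close together and liver 2 lay between them and the untreated livers. The same order was seen for Mx2, a GTPase that restricts viruses (7.92 to 11.96 CPM untreated and 44.2, 25.6 and 64.1 CPM with DSS, log2 fold change 2.22 ± 0.38, adjusted p = 0.0238). It was seen also for Usp18, which removes ISG15 and restrains the interferon receptor (22.9 to 28.8 CPM untreated against 93.4, 56.1 and 101 CPM with DSS, log2 fold change 1.67 ± 0.25, adjusted p = 0.0101). Tor3a (1.60 ± 0.27), Lgals3bp (1.32 ± 0.23) and Parp9 (0.90 ± 0.17) completed the called members, with adjusted p-values of 0.0191, 0.0218 and 0.0296. Liver 2 had the lowest level of the 3 DSS livers in 32 of the 37 genes and liver 1 the highest in 21.

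Several classical members had large but unequal values and did not pass the test. Isg15, the ubiquitin-like modifier, was 8.86, 18.6 and 22.6 CPM untreated and 149.7, 44.6 and 128 CPM with DSS (log2 fold change 2.69 ± 0.53, adjusted p = 0.0537), so that its groups did not overlap although liver 2 was far below the other treated livers. Ifit1, which binds foreign RNA caps, was 12.8, 24.4 and 27.1 CPM untreated against 139, 42.7 and 242 CPM with DSS (log2 fold change 2.72 ± 0.53, adjusted p = 0.0533), and Ifit3 was 12.5, 17.2 and 21.6 CPM untreated against 135, 28.03 and 92.00 CPM with DSS (2.31 ± 0.58, adjusted p = 0.102). Rsad2, the antiviral enzyme viperin, reached 118 and 154 CPM in livers 1 and 3 but only 24.4 CPM in liver 2, against 13.9 to 21.6 CPM untreated (2.43 ± 0.54, adjusted p = 0.0794). For Cmpk2, its neighbour, liver 2 at 11.3 CPM was inside the untreated range of 7.995 to 13.3 CPM while livers 1 and 3 had 75.7 and 73.3 CPM (2.22 ± 0.59, adjusted p = 0.12). Zbp1, a sensor of Z-form nucleic acids, was 5.405, 14.7 and 10.98 CPM untreated and 96.98, 35.98 and 57.7 CPM with DSS (2.62 ± 0.50, adjusted p = 0.0511), and Ifi44 and Oasl2 had log2 fold changes of 2.54 ± 0.56 (adjusted p = 0.077) and 2.78 ± 0.63 (adjusted p = 0.0841). The number of list members called was 28 without DSS liver 2, and 10 and 9 without DSS livers 1 and 3. It was 6, 4 and 6 without untreated livers 1, 2 and 3, and 5 in the fit of the 6 wild-type libraries. With all libraries in, DESeq2 called 34 of the 37 higher and limma-voom 24. The median log2 fold change stayed between 1.58 and 1.96 in these fits.

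**Figure D2:**
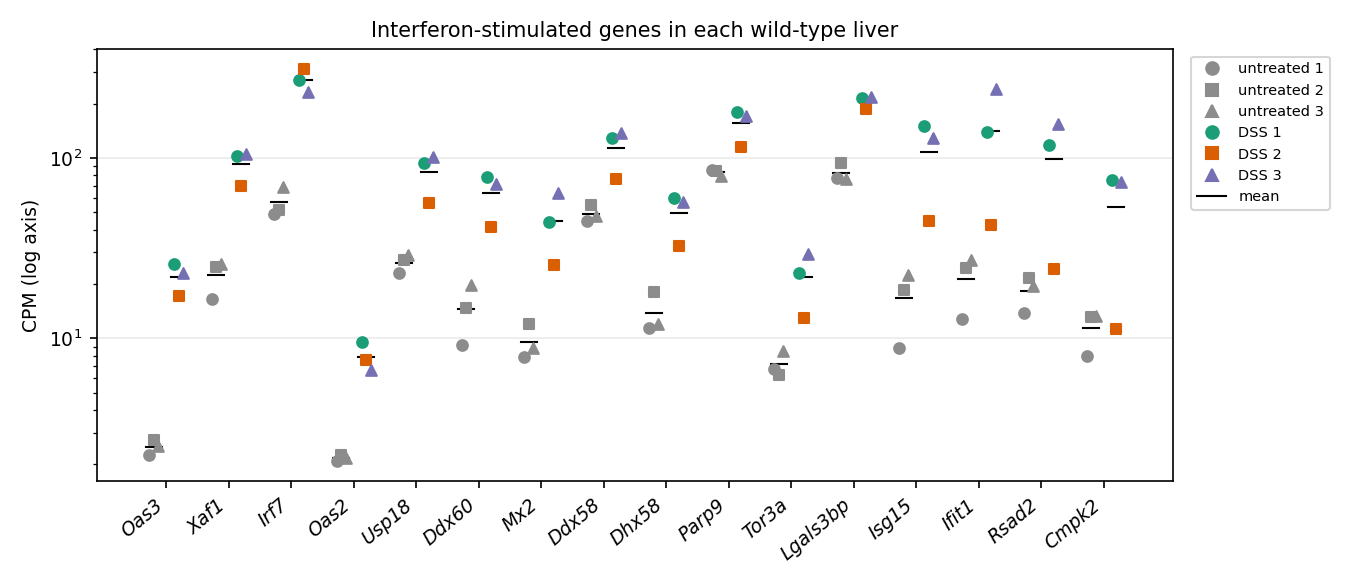
CPM on a log axis of 16 interferon-stimulated genes in each untreated liver (grey) and DSS liver (coloured), with a bar at each group's mean; the first 12 genes were called higher. DSS liver 2 (orange squares) is the lowest treated liver for most genes and lies within the untreated range for Cmpk2, whereas Irf7 is highest there (312 CPM).

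The Schlafen genes, interferon-inducible regulators of lymphocyte and myeloid quiescence, were higher in all 3 DSS livers. This list was drawn up after the values were seen, so its count and its evenness are descriptions. All 5 tested members were called higher. Their median log2 fold change was 2.16, and the medians in livers 1 to 3 were 1.98, 1.99 and 2.30. Slfn4 was 0.237, 0.0547 and 0.347 CPM untreated and 9.68, 13.3 and 4.64 CPM with DSS (log2 fold change 5.44 ± 0.87, adjusted p = 0.0214). Slfn1 was 0.9600, 0.547 and 0.588 CPM untreated against 6.72, 4.28 and 4.13 CPM with DSS (log2 fold change 2.85 ± 0.38, adjusted p = 0.00782), and Slfn5 was 21.7, 17.9 and 25.6 CPM untreated against 74.2, 44.1 and 53.6 CPM with DSS (log2 fold change 1.40 ± 0.23, adjusted p = 0.0162). No DSS liver fell within the untreated range for any of them. Slfn2 (1.44 ± 0.26, adjusted p = 0.0238) and Slfn3 (2.16 ± 0.44, adjusted p = 0.0448) gave log2 fold changes in the same direction. Slfn1 alone kept the call in every fit without 1 library, and 2, 1 and 2 of the 5 were called without untreated livers 1, 2 and 3. Members of this cluster resemble each other in sequence, so reads may be shared between them.

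Among the other called genes are some known to respond to interferon, and those given here were picked after their values were seen. Ly6e, a membrane protein that blocks viral fusion, was 412, 366 and 291 CPM untreated and 1053, 877 and 886 CPM with DSS (log2 fold change 1.40 ± 0.23, adjusted p = 0.0161). Ifitm3, which acts at the endosome, was 259.8, 284 and 240.3 CPM untreated against 429, 584 and 507 CPM with DSS, and liver 2 was the highest (log2 fold change 0.96 ± 0.19, adjusted p = 0.0364). Ube2l6, the conjugating enzyme for ISG15, was 45.3, 60.8 and 58.3 CPM untreated against 146, 119.6 and 106 CPM with DSS (log2 fold change 1.18 ± 0.16, adjusted p = 0.00782). Shisa5, an endoplasmic reticulum protein, was among the 5 most even called genes of at least 1 CPM in the higher group. It was 32.2, 33.1 and 26.7 CPM untreated and 84.4, 75.3 and 76.8 CPM with DSS (log2 fold change 1.36 ± 0.19, adjusted p = 0.00826). The RNA editing enzyme Adar (1.15 ± 0.23, adjusted p = 0.0389), the phospholipid scramblase Plscr1 (1.15 ± 0.16, adjusted p = 0.00903), the DNA-binding protein Pyhin1 (2.17 ± 0.30, adjusted p = 0.00782) and the immune checkpoint ligand Cd274 (1.97 ± 0.36, adjusted p = 0.0279) also had higher log2 levels. In Cd274 the treated livers were uneven, at 19.4, 8.59 and 14.1 CPM, and Ifitm6 was 0.276 to 0.377 CPM untreated and 1.299, 5.25 and 1.005 CPM with DSS, highest in liver 2 (log2 fold change 2.96 ± 0.57, adjusted p = 0.0358). Of the genes in this paragraph, Ube2l6, Shisa5, Plscr1 and Pyhin1 kept the call in all fits without 1 library, and the others lost it without at least 1 untreated liver.

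Genes of antigen presentation by MHC class I had positive fold changes and were mostly highest in liver 1, with 1 call in edgeR. All 11 tested members had a positive fold change, with a median of 0.58 on the log2 scale, and the groups did not overlap in 5 (over all tested genes, 52.2% were positive and 9.49% lay wholly above). Tapbpl, a peptide editor for class I molecules, was the only member called by edgeR, at 20.7, 20.6 and 17.7 CPM untreated and 39.3, 31.6 and 31.95 CPM with DSS (log2 fold change 0.80 ± 0.16, adjusted p = 0.0383), and it lost the call without any untreated liver and without DSS livers 1 or 3. The peptide transporter Tap1 was 21.4 to 31.2 CPM untreated and 99.02, 36.9 and 61.2 CPM with DSS (1.34 ± 0.31, adjusted p = 0.072), and the immunoproteasome subunit Psmb10 was 24.7 to 26.7 CPM untreated against 79.6, 31.5 and 39.2 CPM with DSS (0.98 ± 0.29, adjusted p = 0.14). Liver 1 was the highest of the 3 DSS livers in 10 of the 11 genes and liver 2 the lowest in 9, and without liver 1 the median was 0.35. The 7 tested MHC class II genes had a median log2 fold change of 0.01, which was 0.85 without untreated liver 1 and -0.82 without DSS liver 1, and none was called by edgeR, DESeq2 or limma-voom or had an unadjusted p under 0.05.

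Some genes of mononuclear phagocytes were called higher, and in bulk tissue more cells of a type cannot be told apart from more RNA per cell. Siglec1, the sialic acid receptor CD169 of macrophages, was 32.2, 23.2 and 26.9 CPM untreated and 95.7, 119.6 and 96.4 CPM with DSS (log2 fold change 1.92 ± 0.26, adjusted p = 0.00782), and the treated livers were close together. Fcgr1, the high-affinity IgG receptor, was 4.34, 2.98 and 2.46 CPM untreated against 10.3, 12.2 and 9.74 CPM with DSS (log2 fold change 1.72 ± 0.28, adjusted p = 0.0162), and Fcgr4 was 5.63, 3.59 and 3.24 CPM untreated against 12.2, 14.5 and 8.41 CPM with DSS (log2 fold change 1.49 ± 0.27, adjusted p = 0.0261). Mpeg1, the pore-forming perforin-2 of phagocytes, was 160.5, 87.2 and 116 CPM untreated and 616, 403 and 307 CPM with DSS, highest in liver 1 (log2 fold change 1.87 ± 0.29, adjusted p = 0.0129). These 4 genes were picked after their values were seen, and for all 4 the groups were apart by a clear gap. Of the 13 tested Fc, Siglec and CD300 receptors, a list drawn up after the values were seen, 5 were called higher, including the inhibitory receptor Siglece (1.64 ± 0.27, adjusted p = 0.0178) and Cd300e (1.78 ± 0.31, adjusted p = 0.0222), and 1 lower. That 1 was Cd300lg, which is found on endothelium, at 16.3, 15.1 and 13.3 CPM untreated and 8.38, 7.59 and 6.54 CPM with DSS (log2 fold change -0.99 ± 0.17, adjusted p = 0.0178). Without untreated livers 2 or 3 only 1 of the 5 stayed called higher, Siglec1 in each case.

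Among the 14 tested markers of monocytes and monocyte-derived macrophages, 3 were called higher, Fcgr1, Ms4a4c and Plac8, and 13 had a positive fold change. Ms4a4c, a membrane protein of myeloid and lymphoid cells, was 1.43, 0.724 and 1.15 CPM untreated and 7.32, 4.82 and 4.73 CPM with DSS (log2 fold change 2.35 ± 0.41, adjusted p = 0.0222). Plac8 was 8.84, 6.44 and 9.68 CPM untreated against 38.4, 36.1 and 18.2 CPM with DSS, with liver 3 far below the other treated livers (log2 fold change 1.89 ± 0.34, adjusted p = 0.0279). The summed level of the list was 84.1 to 132.7 CPM in the untreated livers and 252.5, 271.1 and 141.5 CPM in DSS livers 1 to 3, so liver 3 was close to the untreated livers. Liver 3 was the lowest treated liver in all 14 genes. None of the 3 calls was kept without untreated livers 2 or 3, or in the fit of the 6 wild-type libraries. The 13 Kupffer cell markers summed to 548.9 to 936.2 CPM untreated and to 968.5, 1525 and 745.2 CPM with DSS, and none was called by edgeR, DESeq2 or limma-voom at a median log2 fold change of 0.62, although 8 had an unadjusted p under 0.05. Without DSS liver 2 that median was 0.34. Liver 2 was the highest treated liver in all 13 of them. Clec4f, which within the liver marks Kupffer cells, was 131, 81.6 and 106 CPM untreated and 139, 197 and 119.7 CPM with DSS (0.52 ± 0.22, adjusted p = 0.306), the phagocytic receptor Marco was 48.5, 9.32 and 21.4 CPM untreated against 62.2, 119.7 and 33.5 CPM with DSS (1.44 ± 0.59, adjusted p = 0.302), and the complement subunit C1qa was 48.4, 26.4 and 33.6 CPM untreated against 53.7, 76.8 and 38.2 CPM with DSS (0.64 ± 0.25, adjusted p = 0.249). In these 3 genes liver 2 was the highest treated liver and liver 3 fell within the untreated range.

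The chemokines that attract monocytes and B cells were among the largest rises. Ccl7 was at 0, 0 and 0.0905 CPM in the untreated livers and 1.84, 1.54 and 2.17 CPM in the DSS livers (log2 fold change 5.94 ± 1.07, adjusted p = 0.0279). Ccl2 was 0.513, 0.369 and 1.06 CPM untreated against 7.18, 3.52 and 3.08 CPM with DSS (log2 fold change 2.83 ± 0.49, adjusted p = 0.0214), and Cxcl13, the B cell chemoattractant, was 0.145, 0.178 and 0.121 CPM untreated against 1.12, 4.06 and 1.18 CPM with DSS, highest in liver 2 (log2 fold change 3.82 ± 0.67, adjusted p = 0.0219). These 3 were the only called members of 24 tested chemokines, and all were low transcripts in whole liver. Of the 24, 15 had a positive fold change (52.2% of all tested genes did) and 9 a negative one. The median difference from the untreated livers over the list was 0.92, 0.12 and 0.54 in livers 1 to 3. The call was lost by Ccl2, Ccl7 and Cxcl13 without untreated liver 1 or 2, by Cxcl13 also without untreated liver 3 and by Ccl7 also without DSS liver 3. limma-voom called 1 of the 24, Ccl2. In contrast, the neutrophil chemoattractant Cxcl1 was 3.16, 3.18 and 3.09 CPM untreated and 4.57, 203 and 23.95 CPM with DSS, and did not pass the test (4.62 ± 1.32, adjusted p = 0.153), its value resting on liver 2 and, to a lesser degree, liver 3. Irg1 (Acod1), which makes the antimicrobial metabolite itaconate in activated macrophages, was 0.158, 0.0956 and 0.151 CPM untreated and 2.95, 1.78 and 0.591 CPM with DSS (log2 fold change 3.70 ± 0.54, adjusted p = 0.0101). It was 1 of the 5 least even called genes and was highest in liver 1. Il18bp, the soluble inhibitor of interleukin 18, was 16.6, 8.96 and 11.7 CPM untreated against 43.6, 79.9 and 29.04 CPM with DSS (log2 fold change 2.03 ± 0.35, adjusted p = 0.024).

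Acute-phase plasma proteins gave some of the largest fold changes in the data and none passed the test in edgeR as fitted here, although 18 had an unadjusted p under 0.05. Of the 20 tested genes 19 had a positive fold change, the median was 2.31 on the log2 scale, and the groups did not overlap in 7 (52.2% and 9.49% of all tested genes for the sign and the gap). These genes took 2.197% to 2.87% of all counts in the untreated livers and 3.07%, 18.8% and 7.75% in DSS livers 1, 2 and 3. Saa2, serum amyloid A, was 2.52, 11.5 and 11.2 CPM untreated and 10.1, 23323 and 698 CPM with DSS (log2 fold change 9.89 ± 2.84, adjusted p = 0.156), so liver 1 was within the untreated range while livers 3 and 2 were far above it. Its near-identical neighbour Saa1 was not analysed here, and reads may be shared between them. Lcn2, the siderophore-binding lipocalin, was 4.66, 3.29 and 13.6 CPM untreated and 14.2, 5728 and 196 CPM with DSS (log2 fold change 8.11 ± 2.06, adjusted p = 0.119). Liver 1 was only just above the highest untreated liver.

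Haptoglobin and hemopexin, which bind free hemoglobin and heme, showed the same steps at a far higher level. Hp was 1337, 2089 and 1151 CPM untreated and 1652, 35600 and 8320 CPM with DSS (log2 fold change 3.32 ± 0.83, adjusted p = 0.0999), and Hpx was 3491, 5549 and 3520 CPM untreated against 4341, 63812 and 12410 CPM with DSS (log2 fold change 2.68 ± 0.73, adjusted p = 0.121), with liver 1 inside the untreated range in both. The fibrinogen chains, which form the clot, were above the untreated range in every treated liver. Fga was 3686, 4785 and 3725 CPM untreated and 6552, 24590 and 14307 CPM with DSS (log2 fold change 1.90 ± 0.40, adjusted p = 0.0514), and Fgb was 4245, 4696 and 3738 CPM untreated against 5618, 23179 and 12194 CPM with DSS (log2 fold change 1.69 ± 0.39, adjusted p = 0.0673). Fgg had a log2 fold change of 1.76 ± 0.42 (adjusted p = 0.0792), and in all 3 chains liver 1 was the lowest treated liver and liver 2 the highest. Itih4 was 1790, 2601 and 2354 CPM untreated against 2108, 24878 and 6886 CPM with DSS (2.33 ± 0.65, adjusted p = 0.123), Steap4 was 157, 182 and 126 CPM untreated against 183, 1885 and 548 CPM with DSS (2.49 ± 0.64, adjusted p = 0.111), and Fgl1 was 65.1, 264 and 344 CPM untreated against 159, 3038 and 1738 CPM with DSS (2.88 ± 0.89, adjusted p = 0.174). A2m, alpha-2-macroglobulin, was at 0.136 to 0.601 CPM in the untreated livers and at 0.0559, 451 and 0.725 CPM in the DSS livers, so that liver 2 alone held its transcript at an appreciable level (8.80 ± 2.80, adjusted p = 0.196). Mbl2, the mannose-binding lectin, was the only member with a negative fold change (-0.54 ± 0.22, adjusted p = 0.264). Across the list, liver 2 was the highest treated liver in 19 of 20 genes and liver 1 the lowest in 18. Without DSS liver 1, 14 of the 20 were called higher, and without DSS liver 2, or any of the other libraries, 0 were. The median log2 fold change was 1.04 without DSS liver 2. With all libraries in, DESeq2 called 15 of the 20 and limma-voom 0, the latter at a median of 1.32, and edgeR called Fga alone with DESeq2's size factors, without a filter or with a filter of 10 counts per library.

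**Figure D3:**
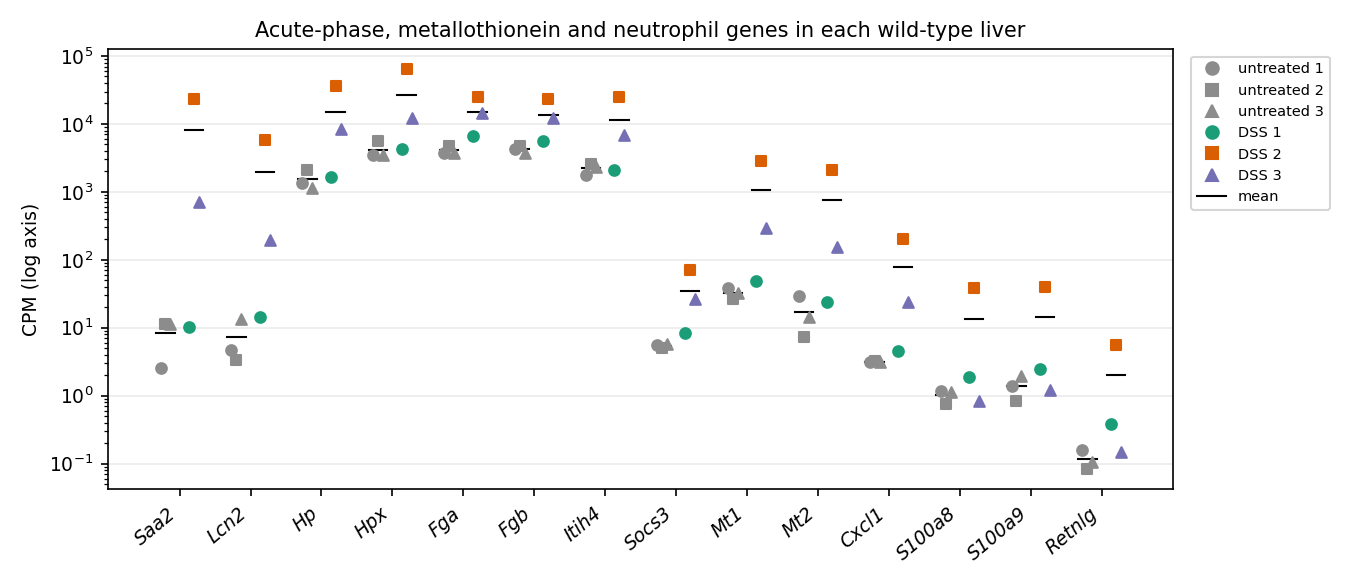
CPM on a log axis of acute-phase genes, Socs3, metallothioneins, Cxcl1 and neutrophil genes in each untreated liver (grey) and DSS liver (coloured), with a bar at each group's mean. DSS liver 1 sits within or close above the untreated livers, liver 3 is intermediate for the hepatocyte genes and at the untreated level for S100a8 and S100a9, and liver 2 is highest throughout (Saa2 23323 CPM).

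Components of IL-6 and STAT3 signalling were highest in liver 2 in 12 of 18 tested genes and lowest in liver 3 in 11. Their median difference from the untreated livers was 0.54, 1.77 and 0.68 in livers 1 to 3, so by that measure liver 1 was lowest. Of the 18, 17 had a positive fold change, with a median of 1.12 on the log2 scale, and the groups did not overlap, with DSS higher, in 11 (52.2% and 9.49% of all tested genes). Socs1, a feedback inhibitor of JAK kinases that interferon also induces, was the only member called by edgeR, at 0.105, 0.219 and 0.347 CPM untreated and 3.003, 1.13 and 0.828 CPM with DSS (log2 fold change 2.89 ± 0.51, adjusted p = 0.0222). It was highest in liver 1, like 21 of the interferon-stimulated genes, and it lost the call without untreated liver 1 or 2 and in limma-voom. Of the 18 genes DESeq2 called 5 higher and 1 lower, and limma-voom 0. Socs3, the feedback inhibitor of the IL-6 receptor, was 5.56, 5.03 and 5.69 CPM untreated and 8.47, 69.9 and 26.1 CPM with DSS (log2 fold change 2.68 ± 0.59, adjusted p = 0.0749). It was highest in liver 2, like the acute-phase genes, and its groups did not overlap. The shared receptor chain Il6st was 256, 291 and 267 CPM untreated against 366, 513 and 433 CPM with DSS (0.69 ± 0.17, adjusted p = 0.0804), and the oncostatin M receptor Osmr was 6.56, 3.498 and 4.33 CPM untreated against 8.55, 37.6 and 7.47 CPM with DSS (1.90 ± 0.55, adjusted p = 0.144). Stat3 itself was 45.7, 138 and 87.5 CPM untreated and 63.2, 329 and 307 CPM with DSS, and liver 1 lay within the untreated range (1.37 ± 0.55, adjusted p = 0.288). Lifr, the receptor for leukemia inhibitory factor, was the only member of the list with a negative value (-0.98 ± 0.28, adjusted p = 0.124). Cebpd, a transcription factor that cooperates with STAT3 at acute-phase promoters, was 1.34 to 1.99 CPM untreated and 4.205, 15.6 and 2.62 CPM with DSS (log2 fold change 2.199 ± 0.61, adjusted p = 0.123).

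The metallothioneins, zinc-binding proteins induced by both glucocorticoids and IL-6, followed liver 2 closely. Mt1 was 38.3, 26.2 and 32.7 CPM untreated and 48.9, 2850 and 294 CPM with DSS (5.04 ± 1.29, adjusted p = 0.117), and Mt2 was 29.5, 7.27 and 14.2 CPM untreated against 24.2, 2106 and 152 CPM with DSS (5.48 ± 1.56, adjusted p = 0.153). Of the 19 glucocorticoid-induced genes tested 1 was called, Errfi1, an inhibitor of the EGF receptor, at 271, 438 and 336 CPM untreated and 1169, 1241 and 756 CPM with DSS (log2 fold change 1.60 ± 0.25, adjusted p = 0.013). Unlike the metallothioneins it was as high in liver 1 as in liver 2. Its call was lost without untreated liver 1 or 3. Igfbp1, which binds insulin-like growth factors and rises in fasting and inflammation, was 83.6, 145 and 102 CPM untreated and 398, 726 and 212 CPM with DSS (2.02 ± 0.49, adjusted p = 0.0896), with groups that did not overlap.

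Neutrophil markers were high in liver 2, slightly above the untreated level in liver 1 and near it in liver 3. The 13 tested markers summed to 4.78 to 7.39 CPM in the untreated livers and to 11.1, 134.0 and 5.81 CPM in DSS livers 1 to 3. S100a8 was 1.18, 0.765 and 1.13 CPM untreated and 1.86, 38.2 and 0.843 CPM with DSS (3.73 ± 1.26, adjusted p = 0.213), its partner S100a9 was 1.38, 0.847 and 1.92 CPM untreated against 2.44, 39.2 and 1.21 CPM with DSS (3.37 ± 1.17, adjusted p = 0.223), and Retnlg was 0.158, 0.08198 and 0.106 CPM untreated against 0.377, 5.52 and 0.148 CPM with DSS (4.10 ± 1.31, adjusted p = 0.194). Liver 2 was the highest treated liver in 12 of the 13, and liver 1 was above every untreated liver in 7 (29.4% of all tested genes were). The exception was Clec4d, a lectin of myeloid cells, at 0 counts in the untreated livers and in DSS liver 2 and at 0.419 and 0.296 CPM in DSS livers 1 and 3. The granule protein Ltf and the surface marker Cd177 had 0 counts in DSS liver 1, and Cd177 also in all untreated livers. More even than these was the receptor Csf3r, at 2.25, 1.79 and 1.15 CPM untreated and 4.12, 5.01 and 2.100 CPM with DSS (1.11 ± 0.32, adjusted p = 0.13). None of the 13 was called in edgeR, in which 10 had an unadjusted p under 0.05, 4 were called by DESeq2 and 0 by limma-voom. Liver 2 is also the liver with the acute-phase and metallothionein values above. The part of neutrophil RNA in those values was not tested. The interleukin 1 receptor antagonist Il1rn, which hepatocytes and neutrophils both make, was 3.09, 2.21 and 2.896 CPM untreated and 7.35, 63.1 and 2.84 CPM with DSS (3.16 ± 0.96, adjusted p = 0.171).

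Lipogenic genes were mostly lower in the DSS livers, with 1 call. Thrsp, the thyroid hormone responsive protein that promotes lipogenesis, had the smallest p-value of the whole comparison and fell from 506, 411 and 218 CPM in the untreated livers to 22.98, 31.4 and 32.5 CPM in the DSS livers (log2 fold change -3.71 ± 0.33, adjusted p = 0.000906). The treated livers were close together and far below the lowest untreated liver. It was the only member called of 23 tested genes of fatty acid synthesis, of which 20 had a negative fold change (47.8% of all tested genes did) with a median of -0.43, and the groups did not overlap in 6. That median was -0.22 both without untreated liver 2 and without DSS liver 2. Scd1, the stearoyl-CoA desaturase, was 3028, 8534 and 3983 CPM untreated and 1032, 824 and 1768 CPM with DSS (log2 fold change -2.10 ± 0.45, adjusted p = 0.0537), and Elovl6, which elongates palmitate, was 164, 260.0 and 129.9 CPM untreated against 74.9, 48.8 and 88.7 CPM with DSS (log2 fold change -1.38 ± 0.32, adjusted p = 0.071). Their groups did not overlap either, as was the case for the glycolytic enzyme Pklr (-1.04 ± 0.31, adjusted p = 0.139), which supplies the pathway. Fasn, the synthase itself, overlapped between groups at 723, 1534 and 556 CPM untreated against 644, 233 and 782 CPM with DSS (-0.76 ± 0.47, adjusted p = 0.493). Liver 2 was the lowest treated liver in 17 of the 23. Thrsp stayed called in every fit without 1 library. Beside these, G0s2, the inhibitor of adipose triglyceride lipase, fell from 36.7, 55.04 and 82.99 to 11.04, 7.91 and 13.5 CPM (log2 fold change -2.43 ± 0.34, adjusted p = 0.0101), and Vldlr, a lipoprotein receptor, fell from 23.5, 21.5 and 42.7 to 2.74, 2.51 and 9.15 CPM (log2 fold change -2.61 ± 0.46, adjusted p = 0.0302). G0s2 kept the call in every fit without 1 library, whereas Vldlr lost it without DSS liver 1 and without each untreated liver.

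In cholesterol synthesis, Sqle (squalene epoxidase) and Cyp51 (lanosterol demethylase) were called higher of 21 tested genes, 15 of which had a positive fold change with a median of 0.52. Sqle was 118, 147 and 104 CPM untreated and 231, 285 and 210.2 CPM with DSS (log2 fold change 0.98 ± 0.20, adjusted p = 0.0465), and Cyp51 was 146, 188 and 156 CPM untreated against 375, 254 and 336 CPM with DSS (log2 fold change 0.98 ± 0.20, adjusted p = 0.049). Nsdhl was 60.5, 74.3 and 47.4 CPM untreated against 139, 84.6 and 154 CPM with DSS (1.05 ± 0.26, adjusted p = 0.0841), and Idi1 was 195, 250.2 and 208 CPM untreated against 594, 273 and 426 CPM with DSS (0.98 ± 0.27, adjusted p = 0.109). The groups did not overlap in 9 of the 21 (9.49% of all tested genes lay wholly above). This was the most even of the lists with called members, with a median range over the 3 DSS livers of 0.39 on the log2 scale, although the untreated livers themselves differed, untreated liver 2 lying 0.57 above the others in the median. Sqle lost the call without any 1 of the 6 libraries and Cyp51 without any but DSS liver 2, and neither was called in the fit of the 6 wild-type libraries. Without untreated liver 2 the median of the list was 0.92.

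Most enzymes of drug metabolism had lower values, most of all in liver 2. Of 20 tested P450 enzymes of families 1 to 3, 2 were called lower, 18 had a negative fold change, the median was -0.66 and the groups did not overlap, with DSS lower, in 10 (9.21% of all tested genes). Cyp2b10, the classical target of the nuclear receptor CAR, fell from 18.6, 8.27 and 16.4 to 1.41, 1.85 and 0.163 CPM (log2 fold change -3.66 ± 0.65, adjusted p = 0.0375), and was the least even of all called genes of at least 1 CPM in the higher group, with liver 3 far below the other treated livers. Cyp1a1, the target of the aryl hydrocarbon receptor, fell from 4.14, 2.596 and 3.26 to 1.41, 0.875 and 1.17 CPM (log2 fold change -1.53 ± 0.30, adjusted p = 0.0361). Its relative Cyp1a2 was 1098, 645 and 790.0 CPM untreated and 447, 14.6 and 559 CPM with DSS (-1.31 ± 0.86, adjusted p = 0.535), with liver 2 far below the rest. Cyp2a22 was 42.4, 11.01 and 131 CPM untreated against 7.82, 2.42 and 3.93 CPM with DSS (-3.70 ± 0.82, adjusted p = 0.0815), and its highest value was in untreated liver 3. The median over the 20 enzymes was -0.39, -1.74 and -0.40 in DSS livers 1 to 3. Without DSS liver 2 the median log2 fold change was -0.28 with 1 call, and without untreated livers 1 or 3 no P450 was called. Without DSS liver 1 it was -1.02 with 2 calls lower and 2 higher, and DESeq2 called 7 lower and 1 higher with all libraries in.

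The pericentral genes of the liver lobule set DSS livers 1 and 2 apart from liver 3. Pericentral hepatocytes, next to the central vein, depend on Wnt signals for genes of glutamine synthesis and drug metabolism. All 10 tested pericentral markers had a negative fold change, none was called by edgeR (2 had an unadjusted p under 0.05, and DESeq2 called 1), and liver 3 was the highest treated liver in all 10. The median difference from the untreated livers was -1.31 in liver 1, -1.87 in liver 2 and 0.26 in liver 3. Oat, ornithine aminotransferase, was 497, 367 and 521 CPM untreated and 69.7, 173 and 271 CPM with DSS (-1.43 ± 0.36, adjusted p = 0.0886), and the glutamate transporter Slc1a2 was 304, 210.1 and 299 CPM untreated against 15.2, 46.7 and 163 CPM with DSS (-1.85 ± 0.68, adjusted p = 0.247). Cyp2e1 was 5652, 4150 and 4607 CPM untreated and 1876, 1711 and 6430 CPM with DSS (-0.52 ± 0.45, adjusted p = 0.647), so liver 3 exceeded every untreated liver. The Wnt target Axin2 was 7.404, 10.2 and 6.85 CPM untreated against 1.59, 1.21 and 12.3 CPM with DSS (-0.70 ± 0.88, adjusted p = 0.786), and Lgr5 was 7.496, 1.75 and 5.99 CPM untreated against 0.182, 0.605 and 8.21 CPM with DSS (-0.76 ± 1.19, adjusted p = 0.832). Without DSS liver 3, 3 of the 10 markers were called lower and the median log2 fold change was -1.79, against -0.73 with all libraries, -0.26 without DSS liver 1 and -0.29 without DSS liver 2. The 12 periportal markers, from the other end of the lobule, were ordered differently, with medians of -0.07, -0.84 and -0.42 in livers 1 to 3 and liver 1 highest in 9. None of them was called by edgeR, 5 had an unadjusted p under 0.05, and DESeq2 called 1 higher and 1 lower.

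Genes of amino acid breakdown had lower values mainly in liver 2, without calls in edgeR. Over 28 tested genes of the urea cycle and amino acid breakdown the median difference was -0.22, -0.86 and -0.34 in livers 1 to 3, and 24 had a negative fold change. An unadjusted p under 0.05 was reached by 9 of them, and DESeq2 called 3. The median log2 fold change was -0.39, and -0.21 without DSS liver 2. Cps1, the first enzyme of the urea cycle, was 7995, 7134 and 7186 CPM untreated and 8118, 3725 and 6719 CPM with DSS (-0.27 ± 0.28, adjusted p = 0.734), and Ass1 was 3264, 2959 and 2660 CPM untreated against 2449, 1056 and 1751 CPM with DSS (-0.76 ± 0.29, adjusted p = 0.25). The mitochondrial ornithine carrier Slc25a15 was lower in all 3 treated livers (683, 505 and 577 CPM untreated against 333, 319 and 408 CPM with DSS, log2 fold change -0.74 ± 0.20, adjusted p = 0.106). In bile acid synthesis and transport the median log2 fold change over 29 genes was -0.28 (-0.14 without DSS liver 2), with 4 at an unadjusted p under 0.05, a share near the 14.5% of all tested genes, and 2 called by DESeq2. A negative fold change was found in 23 of the 29 (47.8% of all tested genes). The median difference over the bile acid genes was -0.14, -0.48 and -0.13 in livers 1 to 3. Cyp7a1, the rate-limiting enzyme of that pathway, was 302, 86.9 and 182 CPM untreated and 28.5, 4.77 and 81.5 CPM with DSS (-2.31 ± 1.17, adjusted p = 0.408), and its groups did not overlap. The 37 respiratory chain genes had a small shift that was largest in liver 2, with medians of -0.15, -0.53 and -0.20 in livers 1 to 3. Their median log2 fold change was -0.25, with negative values in 34, liver 2 lowest in 29, a range under 1 over the treated livers in all 37, and no call by edgeR, DESeq2 or limma-voom. The groups did not overlap, with DSS lower, in 14 of the 37 (9.21% of all tested genes), and 6 had an unadjusted p under 0.05, near the 14.5% of all tested genes.

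Heat-shock chaperones mostly had lower values, most of all in liver 2, with 4 calls. This list too was drawn up after the values were seen. Its median difference from the untreated livers was -0.33, -0.77 and -0.34 in livers 1 to 3, and liver 2 was the lowest in 16 of 23. Of 23 tested members 4 were called lower, 18 had a negative fold change, and the groups did not overlap, with DSS lower, in 12 (47.8% and 9.21% of all tested genes). Hsp90aa1, the inducible HSP90, fell from 423, 366 and 383 to 175, 154 and 166 CPM (log2 fold change -1.24 ± 0.16, adjusted p = 0.00756), and Hsph1, a nucleotide exchange factor of HSP70, fell from 113, 105 and 102 to 45.1, 38.3 and 43.8 CPM (log2 fold change -1.33 ± 0.27, adjusted p = 0.0478). Chordc1, an HSP90 co-chaperone, fell from 66.3, 61.5 and 76.3 to 42.5, 30.5 and 34.1 CPM (log2 fold change -0.93 ± 0.16, adjusted p = 0.0222), and Serpinh1, the collagen chaperone HSP47, fell from 23.9, 26.1 and 16.97 to 12.7, 10.1 and 11.96 CPM (log2 fold change -0.94 ± 0.18, adjusted p = 0.0302). The groups did not overlap in any of the 4. The call of Hsp90aa1 was kept without any 1 library and that of Hsph1 was lost without each of them. In these fits Chordc1 kept the call only without DSS livers 1 or 2. Serpinh1 kept it only without DSS liver 1 or untreated liver 3. Over 23 genes of the unfolded protein response the median log2 fold change was 0.18 (0.03 without DSS liver 2) and none was called by edgeR (3 had an unadjusted p under 0.05, near the 14.5% of all tested genes, and DESeq2 called 1). Of these 23 genes, 19 had a positive fold change (52.2% of all tested genes did). Their median difference from the untreated livers was -0.16, 0.51 and 0.08 in livers 1 to 3. As a share of all counts, without the TMM factor, these genes took 0.608% to 0.684% in the untreated livers. That share was 0.526%, 0.638% and 0.589% in DSS livers 1 to 3, so liver 2 was then within the untreated range. Hspa5 (BiP), 1 of the 4 with a negative fold change, was 1545, 1559 and 1686 CPM untreated and 898, 1655 and 1004 CPM with DSS (-0.43 ± 0.25, adjusted p = 0.467). In CPM, which hold the TMM factor, liver 2 alone was within the untreated range for Hspa5.

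**Figure D4:**
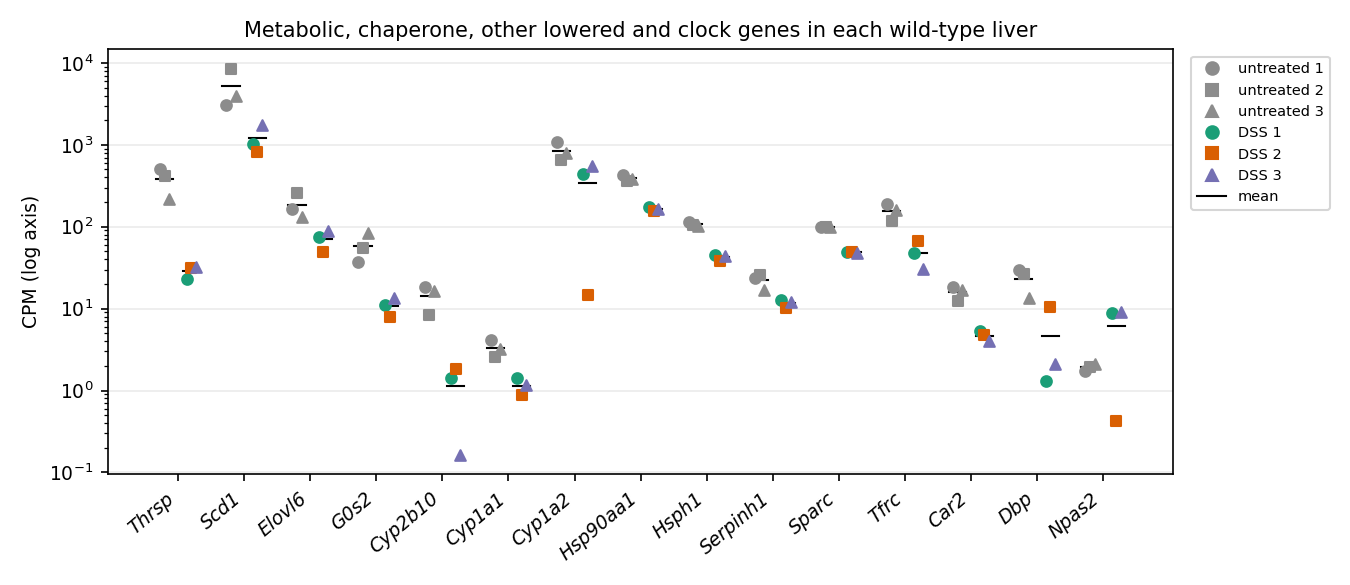
CPM on a log axis of genes of lipid synthesis, P450 enzymes, chaperones, other lowered genes and clock genes in each untreated liver (grey) and DSS liver (coloured), with a bar at each group's mean. The groups are apart and tight for Hsp90aa1, Hsph1 and Sparc, whereas Cyp1a2 is lowest in DSS liver 2 (14.6 CPM) and Dbp and Npas2 set livers 1 and 3 apart from liver 2.

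Several further genes fell in all 3 treated livers. Sparc, a matrix protein of stromal and endothelial cells, was 97.95, 100.1 and 99.4 CPM untreated and 48.6, 49.5 and 47.4 CPM with DSS (log2 fold change -1.03 ± 0.11, adjusted p = 0.00215), which made it 1 of the 5 most even called genes, and it was the only called gene of 26 tested in the extracellular matrix list. Car2, a carbonic anhydrase, fell from 18.4, 12.3 and 16.9 to 5.31, 4.73 and 4.02 CPM (log2 fold change -1.76 ± 0.23, adjusted p = 0.00775), and Hpgd, which inactivates prostaglandins, from 266, 195 and 274 to 126, 95.1 and 96.2 CPM (log2 fold change -1.21 ± 0.19, adjusted p = 0.0147). Tfrc, the transferrin receptor that takes up iron, fell from 190.2, 117 and 161 to 47.8, 67.1 and 30.4 CPM (log2 fold change -1.69 ± 0.33, adjusted p = 0.0393), lowest in liver 3. Pcp4l1 (-3.15 ± 0.48, adjusted p = 0.0178), the cell adhesion gene Sdk1 (-3.01 ± 0.58, adjusted p = 0.0347), the protease Corin (-2.63 ± 0.54, adjusted p = 0.0462), the intermediate filament gene Nes (-2.03 ± 0.33, adjusted p = 0.0162) and the thromboxane receptor Tbxa2r (-2.08 ± 0.34, adjusted p = 0.0162) had large negative log2 fold changes at levels of 0.446 to 0.517 CPM for Tbxa2r and 1.802 to 6.34 CPM for Pcp4l1 in the DSS livers. The monocarboxylate transporter Slc16a5 (-1.72 ± 0.31, adjusted p = 0.0279) and the zinc finger gene Zfp503 (-1.55 ± 0.26, adjusted p = 0.0196) were also lower. Of the genes in this paragraph, Sparc and Car2 kept the call in every fit without 1 library, and the others lost it without at least 1 untreated liver.

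Sinusoidal endothelial genes had lower values in DSS livers 1 and 3, and in liver 2 their direction depended on the scaling. The 11 tested markers summed to 640.2 to 712.8 CPM in the untreated livers and to 504.3, 750.9 and 369.4 CPM in DSS livers 1 to 3. In CPM, 7 of the 11 were above every untreated liver in liver 2 (33.6% of all tested genes were). As a share of all counts, without the TMM factor, the 11 took 0.0640% to 0.0727% in the untreated livers. That share was 0.0533%, 0.0569% and 0.0373% in DSS livers 1 to 3, so liver 2 was then below the untreated livers. None was called by edgeR, in which 4 had an unadjusted p under 0.05, and DESeq2 called 3 lower and limma-voom 4. The 4 that were below every untreated liver in all 3 treated livers included Kdr and Dnase1l3. Kdr, the VEGF receptor, was 99.2, 87.9 and 92.1 CPM untreated and 59.4, 64.2 and 37.8 CPM with DSS (-0.79 ± 0.19, adjusted p = 0.0749), and Dnase1l3 was 84.5, 83.96 and 81.3 CPM untreated against 64.1, 57.9 and 44.5 CPM with DSS (-0.59 ± 0.13, adjusted p = 0.068), with groups that did not overlap. Without DSS liver 2, 4 of the 11 tested markers were called lower.

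Genes of proliferation had lower values in the DSS livers, and their median moved with untreated liver 3. Of 32 tested cell cycle genes 26 had a negative fold change, the median was -0.90, the groups did not overlap, with DSS lower, in 16 (47.8% and 9.21% of all tested genes), and none was called by edgeR. An unadjusted p under 0.05 was reached by 17, and DESeq2 called 10 lower and 1 higher, limma-voom 0. Cdk1, the mitotic kinase, was 4.33, 3.84 and 6.64 CPM untreated and 2.64, 1.94 and 1.82 CPM with DSS (-1.21 ± 0.30, adjusted p = 0.0868), Cdc20 was 3.34, 4.77 and 9.55 CPM untreated against 2.03, 0.844 and 1.98 CPM with DSS (-1.86 ± 0.48, adjusted p = 0.0938), and Tk1 was 18.1, 13.5 and 15.98 CPM untreated against 8.41, 8.499 and 9.09 CPM with DSS (-0.87 ± 0.23, adjusted p = 0.0987). Untreated liver 3 had the highest level of Cdk1 and Cdc20, and without it the median of the list was -0.46. Outside the list, the checkpoint kinase Wee1 (7.76, 9.13 and 6.02 CPM untreated against 2.78, 2.02 and 3.18 CPM with DSS, log2 fold change -1.52 ± 0.31, adjusted p = 0.0461), the transcription factor E2f2 (13.5, 10.96 and 7.98 CPM untreated against 4.18, 3.52 and 5.63 CPM with DSS, log2 fold change -1.28 ± 0.24, adjusted p = 0.0279) and the kinetochore gene Spc24 (9.28, 6.53 and 6.59 CPM untreated against 3.73, 2.58 and 2.75 CPM with DSS, log2 fold change -1.31 ± 0.20, adjusted p = 0.0146) were called lower. Wee1 lost the call without each of the 6 libraries.

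The circadian clock separated DSS livers 1 and 3 from liver 2. The clock runs as a loop in which Arntl and Npas2 drive the Per and Cry repressors and output factors such as Dbp, so its genes peak at opposite times of day. Dbp was 29.4, 26.8 and 13.6 CPM untreated and 1.299, 10.4 and 2.100 CPM with DSS (-2.34 ± 0.79, adjusted p = 0.207), and Per3 was 14.99, 13.8 and 10.2 CPM untreated against 2.36, 14.4 and 1.67 CPM with DSS (-1.08 ± 0.70, adjusted p = 0.526). In the opposite phase, Arntl was 13.7, 14.3 and 17.2 CPM untreated and 29.6, 8.897 and 30.03 CPM with DSS (0.60 ± 0.40, adjusted p = 0.535), and Npas2 was 1.74, 1.95 and 2.13 CPM untreated against 8.88, 0.4297 and 9.18 CPM with DSS (1.67 ± 1.04, adjusted p = 0.509). Livers 1 and 3 thus had low Dbp and Per3 with high Arntl and Npas2, while liver 2 lay within or nearer to the untreated range for Per3 and Dbp and below it for Arntl and Npas2. Per2 (27.9, 22.4 and 17.00 CPM untreated against 5.76, 16.2 and 6.43 CPM with DSS, log2 fold change -1.24 ± 0.43, adjusted p = 0.212) and Usp2 (29.2, 8.42 and 12.6 CPM untreated against 1.89, 6.56 and 2.16 CPM with DSS, log2 fold change -2.25 ± 0.64, adjusted p = 0.144) were lower in all 3 treated livers, and Cry2 was also below the untreated range (-0.47 ± 0.19, adjusted p = 0.279). None of the 22 tested clock genes was called by edgeR with all libraries in (6 had an unadjusted p under 0.05, and DESeq2 called 2 lower), and 5 were called lower without DSS liver 2. The hour at which each liver was taken was not given. Elovl3, a fatty acid elongase under clock control, had 4.64 to 8.403 CPM untreated and 52.2, 0.7799 and 81.5 CPM with DSS (2.91 ± 1.32, adjusted p = 0.354).

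The range of log2 CPM over the 3 DSS livers, which needs no reference to the untreated livers, gives the evenness of each program. Its median was 0.65 over the 80 genes called higher and 0.48 over the 41 called lower, against 0.63 over all tested genes. Since the test itself weighs the spread between livers, called genes had to be even relative to their change. Over whole lists, called members and others together, the median range was 0.39 for cholesterol synthesis, 0.42 for the respiratory chain and 1.18 for interferon-stimulated genes. It was 0.50 for heat-shock chaperones, a list built around called genes. It was 1.87 for P450 enzymes, 2.14 for pericentral markers, 3.46 for acute-phase proteins and 4.98 for neutrophil markers. Among called genes with a mean of at least 1 CPM in the higher group, the most even were Gm5844 (10.7, 9.44 and 8.41 CPM untreated against 3.93, 3.87 and 3.99 CPM with DSS, log2 fold change -1.28 ± 0.16, adjusted p = 0.00433), Sparc, Zfp503, Gm12346 (58.6, 50.3 and 57.3 CPM untreated against 22.2, 20.2 and 21.04 CPM with DSS, log2 fold change -1.39 ± 0.15, adjusted p = 0.00215) and Shisa5. Of those with a symbol, the least even were Cyp2b10, Sdk1, Ifitm6, Irg1 and Treh. Treh, a trehalase, was 0.4602, 0.629 and 0.211 CPM untreated and 3.79, 6.19 and 1.35 CPM with DSS (3.11 ± 0.52, adjusted p = 0.0188). Among the largest rises, the muscarinic receptor Chrm3 was 0.184, 0.0956 and 0.377 CPM untreated against 1.299, 5.11 and 3.16 CPM with DSS (3.86 ± 0.63, adjusted p = 0.0162), Apol10b was 0.434, 0.1503 and 0.317 CPM untreated against 3.44, 3.02 and 1.98 CPM with DSS (3.22 ± 0.51, adjusted p = 0.0161), Spats2l was 7.48, 12.3 and 6.86 CPM untreated against 49.6, 27.1 and 53.6 CPM with DSS (2.29 ± 0.33, adjusted p = 0.0123) and Adamts6 was 1.16, 1.79 and 2.07 CPM untreated against 8.66, 8.02 and 6.95 CPM with DSS (2.24 ± 0.25, adjusted p = 0.00249).

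**Figure D5:**
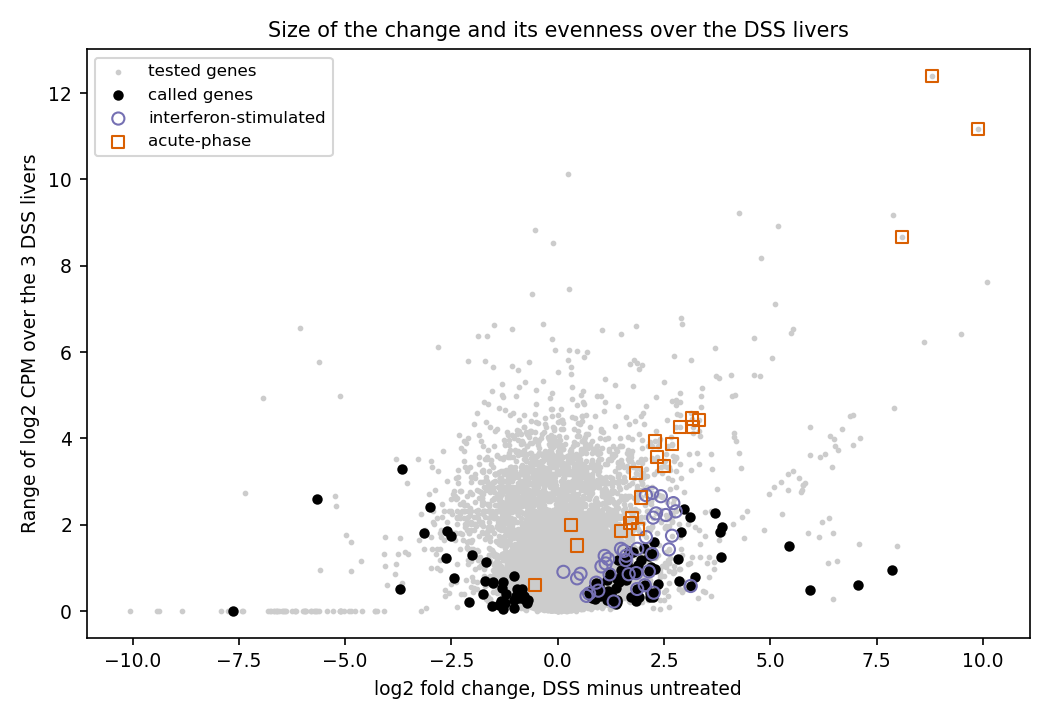
Range of log2 CPM over the 3 DSS livers against the log2 fold change from edgeR for the 17652 tested genes (grey), the 121 called genes (black), interferon-stimulated genes (circles) and acute-phase genes (squares). The acute-phase genes combine large fold changes with ranges of mostly over 1 (median 3.46) and none is called. A range under 1 is found in 57 of the 80 genes called higher, 32 of the 41 called lower and 12208 of the 17652 tested genes.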

How the data were processed

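RNA of whole liver was rRNA-depleted and sequenced as paired ends. Per the labels and the study's methods, the authors trimmed reads with fastp, aligned them with HISAT2 to mm9, assembled and counted genes with StringTie and tested them with DESeq2. The deposited values are estimated counts per gene, which are whole numbers and were used without rounding or scaling. At low counts (means of 2 to 8) their variance between replicates was 4.36 times the mean. A later annotation than that of mm9 shows in 1672 gene identifiers, so no gene coordinates are given. Symbols came from a table of gene names, which matched 28677 of the 51609 rows. The unmatched rows held 10.1% to 18.5% of the counts, and 23458 rows were at 0 in every library.

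The 12 libraries were fitted in 1 edgeR 4.0.16 model with 4 groups (R 4.3.3, TMM, filterByExpr, robust quasi-likelihood), and the wild-type contrast was adjusted by Benjamini-Hochberg over 17652 genes and called at 0.05. By the study's account the 3 replicates of a group are biological. Deviations of single livers used log2 CPM with a prior count of 2. An exact permutation test of 3 against 3 mice cannot go below p = 0.1, so none was used. The procedure was tested on simulated data. These used a single setting for the spread of all genes and held no library that stood apart. That test therefore does not cover a library such as DSS liver 2. Alternatives were DESeq2 1.42.0, limma 3.58.1 voom with sample weights, DESeq2 size factors, no filter on low counts, a stricter filter of 10 counts per library, the 6 wild-type libraries alone, a replicate block and leaving out each library. The replicate numbers did not pair the mice. Multigene families of similar sequence (Schlafen, Oas, Ifitm, Apol, Trim30, Ms4a and Cyp2 members, Saa2) may share reads. Sequence motifs were searched in the RefSeq promoter table (GRCm38.p6) on both strands.

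The comparison, the 28 program lists and the 14 marker lists were chosen with earlier results of these data known, and 3 further lists (heat-shock chaperones, Schlafen genes, and Fc, Siglec and CD300 receptors) after the values were seen. Genes were named by rule: the 15 called genes with a symbol and at least 1 CPM in the higher group that had the largest positive and the 15 with the largest negative fold change, called members of each list or the 3 of lowest p, the 5 most and 5 least even called genes within the same limits, and Xist with 4 Y-linked genes as a check of the libraries. Not every gene so chosen, and not every list, is described above. The lists of NF-kB and TLR signalling and of complement are among those left out. All other genes named were chosen after their values were seen, namely A2m, Adamts6, Adar, Arntl, Ass1, Axin2, C1qa, Cd177, Cd274, Cebpd, Clec4f, Cmpk2, Cps1, Cry2, Cxcl1, Cyp1a2, Cyp2e1, Cyp7a1, E2f2, Fasn, Fgl1, Hp, Hpgd, Hpx, Hspa5, Idi1, Ifi44, Ifit1, Ifit3, Ifitm3, Il18bp, Il1rn, Isg15, Itih4, Lgr5, Lifr, Ltf, Ly6e, Marco, Mbl2, Mpeg1, N28178, Npas2, Oasl2, Osmr, Per3, Pklr, Plscr1, Psmb10, Pyhin1, Rsad2, S100a8, S100a9, Saa2, Spc24, Stat3, Steap4, Tmem171, Ube2l6 and Zbp1.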

Additional observations from a re-analysis of the deposited data

How the results depend on the processing

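The number of called genes depended strongly on the tool and on single libraries. Against 121 genes (80 higher and 41 lower) in edgeR, DESeq2 called 869 (530 and 339, with 119 of the 121 among them), limma-voom with sample quality weights 210 (138 and 72, with 107) and the fit of the 6 wild-type libraries alone 21 (14 and 7, with 21). Leaving out 1 library gave 35 to 209 calls, 22 to 161 higher and 13 to 62 lower, all 3 fewest without untreated liver 2. The total and the higher calls were most without DSS liver 1, and the lower calls without DSS liver 2. Of the alternatives that kept all 12 libraries and edgeR, all stayed within 1.5 times the main counts: 138 calls with DESeq2's size factors, 130 without a filter and 172 with the stricter filter of 10 counts per library. Adding the replicate number as a block to that fit of 6 libraries took the calls from 21 to 3 (1 higher and 2 lower), Oas3 and Vldlr among them. Livers of the same number did not deviate together (r of -0.0366 to -0.0301 over genes), so the numbers are not taken as pairs. No named gene with a fold change here changed its direction under any alternative. Among the named genes and all alternatives, 342 values lost the call and 103 gained it, and the cause was not tested. Estimated counts below about 10 per library, as for Ltf and Cd177, leave single genes of rare cells without a usable fold change.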

Other observations

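Lymphocyte markers mostly had lower values in the DSS livers. Of 12 tested T cell markers 11 had a negative fold change, with a median of -1.07 on the log2 scale, and all 10 B cell and plasma cell markers were negative, with a median of -0.95. The 12 NK cell markers had a median of -0.08, which was 0.41 without untreated liver 1 and -0.75 without DSS liver 1. No marker of these 3 lists was called by edgeR, with 6, 2 and 0 of them at an unadjusted p under 0.05, and DESeq2 called 1 T cell marker lower. Untreated liver 1 had the highest T cell values, with a median difference of 1.26 from the other untreated livers, and without it the T cell median was -0.67.

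The female-biased genes of the liver, which follow the pattern of growth hormone secretion, moved with untreated liver 3, the library with a high level of Xist. Over 13 tested female-biased genes its median difference from the other untreated livers was 2.10. The median log2 fold change of this list was -2.66 with all libraries and -0.55 without untreated liver 3. Hao2, a peroxisomal oxidase, was 19.8, 21.6 and 137 CPM untreated and 0.824, 0 and 0.606 CPM with DSS (-6.93 ± 1.52, adjusted p = 0.0841), and Slc22a26, an organic anion transporter, was 22.6, 74.8 and 227 CPM untreated and 2.78, 1.67 and 5.75 CPM with DSS (-4.99 ± 0.95, adjusted p = 0.0535). Neither gene was called. Over 9 tested male-biased genes the median log2 fold change was 0.26. It depended on single livers, at -0.21 without untreated liver 3, 1.14 without untreated liver 2 and -0.24 without DSS liver 3. The sex of each mouse was not given, and its part in these values was not tested.

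Transcripts with no count in any untreated liver were called higher for Tmem171 (0.517, 0.255 and 0.444 CPM in DSS livers 1 to 3) and N28178 (0.168, 0.271 and 0.251 CPM). Both were present in all 3 treated livers at a low level.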
